A study of Mus musculus with 12 samples.

Results

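Type II alveolar epithelial cells lacking both Gnaq and Gna11 were set against cells of the other 3 genotypes of the series, which lacked Gna11, Gna12, or Gna12 and Gna13. The Gnaq/Gna11 double knockout was represented by 3 of the 12 arrays, and the other genotypes by 3 arrays each. The 3 arrays were taken by their titles, and their mean was compared with the mean of the other groups, each group weighted equally. For each gene it was further recorded whether all 3 Gnaq/Gna11 arrays lay above, or all below, every one of the other 9 arrays. Both groups without Gna11 share that deletion, so by the labels only the Gna11 knockout differs from the double knockout by Gnaq alone, and no group had all 4 genes intact. The cells came from mouse lung and spent 7 days on collagen-coated plates. Their bronchial epithelial medium lacked hydrocortisone, held 10 µg/ml keratinocyte growth factor and was renewed every 3 days. The labels name no other agent, and each hybridisation started from 10 ng of RNA, which was amplified. The sources used here name neither the strain, the age of the mice nor any promoter or Cre that restricts the Gnaq deletion to a cell type. Whether the 3 samples of a genotype stem from different mice or cultures is unstated, so the p-values reflect the spread among these samples alone, and part of it may be technical.

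Gq and G11 are closely related alpha subunits of heterotrimeric G proteins. Receptors for agonists such as thrombin, lysophosphatidic acid, histamine, purine nucleotides and bradykinin switch them on, and they then activate phospholipase C beta, which releases calcium from stores and activates protein kinase C. In alveolar epithelium this pathway is known for surfactant secretion and, through the integrin alpha-v beta-6, for the activation of latent TGF-beta. G12 and G13 form a separate family of alpha subunits, known for their effects on the actin cytoskeleton. The values are log2 expression levels per probe set, and each of the 18193 genes is represented by the probe set with the highest mean. A difference is the mean of the Gnaq/Gna11 arrays minus the mean of the other 3 group means, on the log2 scale, with the standard error (SE) of the limma fit. A gene is said to have risen or fallen when its limma p-value, adjusted by Benjamini-Hochberg over all genes, was under 0.05.

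The 12 arrays had medians of 5.03 to 5.11. On the second principal component, which held 18.6% of the variance, the Gnaq/Gna11 arrays scored -33.7 to -29.5 and the lowest other array -10.02. The Y-linked gene Eif2s3y read 3.32 to 3.54 in all 3 Gnaq/Gna11 arrays, 3.07 to 3.56 in the number 2 array of each other group, and 6.91 or more in the other 6 arrays. Xist, the RNA of the inactive X chromosome, rose in the double knockout (difference 2.27 ± 0.411 SE, limma adjusted p = 0.0106), with 8.84, 7.29 and 9.31 there and at most 7.05 elsewhere. The mean of 19 pan-leukocyte genes was 9.29 ± 0.0126 (SD, n = 3) in the double knockout, 8.57 ± 0.326 in the Gna11, 9.73 ± 0.378 in the Gna12 and 9.42 ± 0.445 in the Gna12/Gna13 knockout. For Gapdh, whose control probe sets at the 3' and 5' ends drift apart when RNA is short, the gap between the ends came to 3.14 ± 0.124, 3.70 ± 0.294, 3.00 ± 0.298 and 3.15 ± 0.174 for these groups. The part of these measures in the results was not tested beyond the fits that carry them as covariates.

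**Figure D1:**
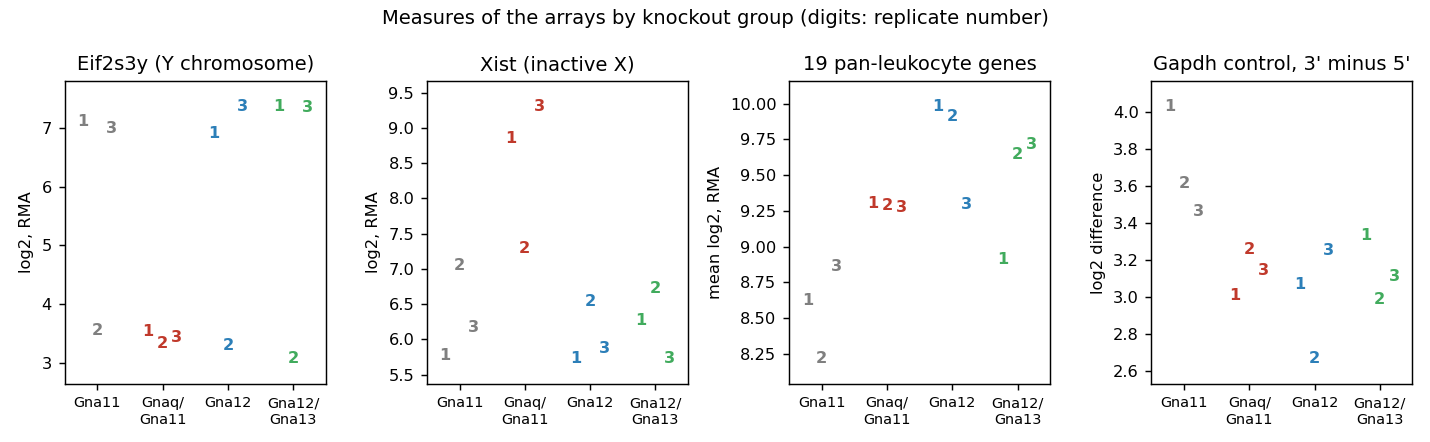
Eif2s3y and Xist (log2), the mean of 19 pan-leukocyte genes (log2) and the Gapdh 3' minus 5' difference (log2 difference) in each of the 12 arrays, by knockout group, with the replicate number as the symbol. All 3 Gnaq/Gna11 arrays and the number 2 arrays of the other groups read low for Eif2s3y, and the leukocyte mean of the double knockout lies above the Gna11 arrays and among those of the other groups.

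The targeted gene was lower in the double knockout by 1 of its 7 probe sets. Probe set 1429559_at of Gnaq read 7.07, 7.02 and 6.21 in the Gnaq/Gna11 arrays and 7.32 to 8.56 in the other 9, with a mean difference of -1.23 (exact two-sided permutation p = 0.00455, the smallest that 3 arrays against 9 allow, adjusted p = 0.0318 over the 7 probe sets). The groups did not overlap, though the nearest Gna11 arrays, at 7.32 and 7.38, lay close to the double knockout. The brightest Gnaq probe set differed by -0.24 (exact permutation p = 0.0545, adjusted p = 0.191), with 9.58, 9.80 and 9.74 against 9.72 to 10.2. The sources used here do not place these probe sets relative to the deleted part of Gnaq, and one outside that part checks nothing. The brightest Gna11 probe set did not separate the groups labelled as lacking Gna11, reading 6.98, 6.86 and 8.16 in the double knockout, 7.57, 9.66 and 7.82 in Gna11 cells, and 7.18 to 8.29 over the remaining 6 arrays. The mean of the Gna11 group, 8.35 ± 1.14 (SD, n = 3), was the highest, and the limma adjusted p for the double knockout was 0.522. Gna12 was likewise not lowest in the group labelled as its knockout, at 7.00 ± 0.13 against 6.85 ± 0.20 in Gna12/Gna13, 6.70 ± 0.13 in Gna11 and 6.59 ± 0.17 in Gnaq/Gna11 arrays. These values of Gna11 and Gna12 thus do not bear out the genotypes, and the group names throughout are those of the labels.

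Across all genes, 1017 of 18193 (5.59%) differed between the double knockout and the mean of the other groups. Of these 550 rose (3.02%) and 467 fell (2.57%). In 995 genes (5.47%) the 3 Gnaq/Gna11 arrays lay outside the range of the other 9, in 576 above (3.17%) and in 419 below (2.3%). Both conditions held for 659 genes (3.62%), 378 above (2.08%) and 281 below (1.54%), and 276 of these differed by at least 2-fold. The median difference of all genes was 0.01, as the normalisation across arrays sets it near 0. These counts moved with the Gnaq/Gna11 arrays themselves, since without number 1, 2 or 3 of them 644, 345 or 396 genes were called. Against only the number 2 array of each other group, the arrays that read low for Eif2s3y, 94 genes were called. That fit pooled these arrays of different genotypes as 1 group, so it had fewer arrays and a spread that includes differences between genotypes. The part of each in the lower count was not tested.

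The largest rises among the genes with the widest gap to every other array were those of Rnase2a, Phgr1 and Clca1. Background was not measured in these values, so no fold is given where a group mean lies under the median probe set level of 5.08. Rnase2a, a ribonuclease of the eosinophil-associated family that alternatively activated macrophages also express, read 9.44, 9.49 and 11.12 in the double knockout. In the other 9 arrays it ran from 3.54 to 6.83 with a median of 4.09, so 2.61 log2 units separated the nearest arrays. The difference was 5.32 ± 0.653 SE (limma adjusted p = 0.00152). Phgr1 read 11.23, 10.67 and 11.01 against 6.41 to 8.80 with a median of 7.14, a difference of 3.59 ± 0.285 SE or 12-fold (limma adjusted p = 0.000159). The Gna11 arrays, at 8.15 to 8.80, came nearest, and the differences from the Gna11, Gna12 and Gna12/Gna13 groups were 2.48, 4.11 and 4.17. Clca1, a protein that mucus-producing airway cells secrete, read 6.69, 6.78 and 8.23 against 3.23 to 4.74 with a median of 3.47. The difference was 3.57 ± 0.384 SE (limma adjusted p = 0.000837), the other arrays lay under the median level, and Clca1 is among the named genes only through its level in the double knockout. The airway mucins Muc5ac and Muc5b did not pass, with differences of 0.40 and -0.13.

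The other widest rises began with Timp1. Timp1, the inhibitor of matrix metalloproteinases, read 9.76, 9.38 and 9.61 against 5.62 to 7.85 with a median of 6.97 (difference 2.78 ± 0.38 SE, 6.86-fold, limma adjusted p = 0.00289). Kng1, the kininogen from which bradykinin is cut, read 7.43, 8.65 and 8.08 against 5.17 to 5.80 (difference 2.64). Its 2 probe sets both lay above all other arrays, though the second, at 3.86 against 3.35, lay under the median level. Lrg1, an acute-phase glycoprotein, read 11.84, 11.81 and 11.96 against 8.49 to 10.48 (difference 2.20). Slc26a4, the anion exchanger pendrin, read 8.17, 9.02 and 8.61 against 5.19 to 6.59 (difference 2.98). Mfsd2a, a transporter of lysophosphatidylcholine, read 10.08, 9.95 and 10.23 against 7.03 to 8.43 (difference 2.40). Like all genes named by their gap, these 5 were chosen for not overlapping with another array. Their folds ran from 4.61 for Lrg1 to 7.89 for Slc26a4. Pfkfb2, which sets the level of the glycolytic regulator fructose-2,6-bisphosphate, read 9.06, 9.07 and 8.22 against 4.83 to 6.50 (difference 2.88). Its other probe sets above the median level differed by 2.18 and 0.48, both with overlapping arrays. Fcer2a, the low-affinity IgE receptor CD23, read 8.72, 9.40 and 9.43 against 5.88 to 7.39 (difference 2.30). Veph1 read 8.54, 8.73 and 8.92 against 4.47 to 7.09, and its difference was 2.06 from the Gna11, 3.33 from the Gna12 and 3.84 from the Gna12/Gna13 group.

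**Figure D2:**
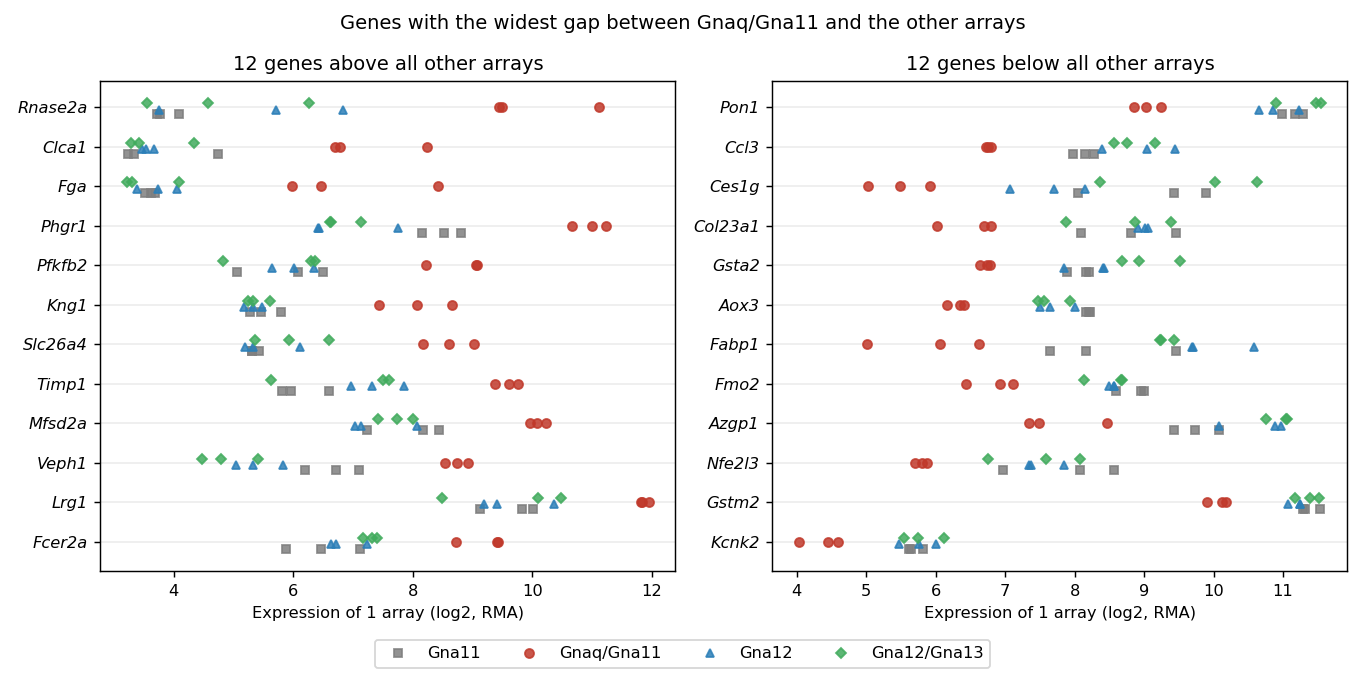
Expression (log2) in each of the 12 arrays for the 12 genes above and the 12 genes below all other arrays with the widest gap between the nearest Gnaq/Gna11 array and the nearest other array. Symbols give the knockout group. From Rnase2a to Fcer2a and from Pon1 to Kcnk2 the 3 Gnaq/Gna11 arrays lie apart from the other 9.

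Fga, which encodes the alpha chain of the clotting protein fibrinogen, was among the widest rises, with 6.47, 8.41 and 5.98 in the double knockout and 3.21 to 4.08 elsewhere (median 3.62). Like Clca1, Fga is named only through its level in the double knockout, since the other arrays lay under the median level. The difference was 3.33 ± 0.404 SE (limma adjusted p = 0.00145), and it was 3.34, 3.23 and 3.42 against the Gna11, Gna12 and Gna12/Gna13 groups. The other chains and the next gene along the chromosome were looked up after this value was seen. Fgg, the gamma chain, read 7.56, 8.70 and 7.79 against 4.63 to 6.29 and rose by 2.73 ± 0.337 SE (limma adjusted p = 0.00155). Fgb, the beta chain, read 5.14, 5.15 and 5.03 against 4.86 to 5.59, so its arrays overlapped (difference 0.02 ± 0.143 SE, limma adjusted p = 0.969). Its only probe set lay near the median level of 5.08 in all arrays, where no change cannot be told from no detection. In gene order Fgg, Fga, Fgb and the splicing factor gene Plrg1 follow each other, and Plrg1 rose by 0.89 ± 0.106 SE (limma adjusted p = 0.00141), with 10.90, 10.82 and 11.17 against 9.78 to 10.32. Other genes of plasma proteins that rose, also picked after their values were seen, were Orm1, an acute-phase glycoprotein (difference 2.50, limma adjusted p = 0.0181), and Proz, the clotting cofactor protein Z (difference 1.99, limma adjusted p = 0.000684).

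The 250 bases upstream of the 3 fibrinogen genes are shown because 2 of the neighbours rose and the third did not. They come from the RefSeq promoter table of build GRCm38.p6, lie at chr3:83025903-83026152 on the plus strand for Fga, chr3:83049864-83050113 on the minus strand for Fgb and chr3:83007474-83007723 on the plus strand for Fgg, and are written 5′ to 3′ with each match to the STAT motif TTCNNNGAA in capitals.
Fga: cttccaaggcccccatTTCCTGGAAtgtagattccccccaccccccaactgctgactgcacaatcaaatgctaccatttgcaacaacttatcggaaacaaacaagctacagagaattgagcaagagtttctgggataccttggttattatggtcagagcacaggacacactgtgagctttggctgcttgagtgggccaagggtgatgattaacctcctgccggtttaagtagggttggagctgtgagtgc
Fgb: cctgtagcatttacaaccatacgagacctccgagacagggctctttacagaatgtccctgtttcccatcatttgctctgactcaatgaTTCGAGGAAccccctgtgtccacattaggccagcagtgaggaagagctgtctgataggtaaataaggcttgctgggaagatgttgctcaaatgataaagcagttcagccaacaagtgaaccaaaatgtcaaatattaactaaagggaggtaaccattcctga
Fgg: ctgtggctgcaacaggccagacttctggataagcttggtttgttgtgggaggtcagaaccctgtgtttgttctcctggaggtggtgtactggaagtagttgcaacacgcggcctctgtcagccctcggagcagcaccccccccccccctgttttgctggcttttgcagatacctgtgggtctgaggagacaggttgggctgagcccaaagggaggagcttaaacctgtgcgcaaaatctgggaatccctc
The motif, which reads the same on both strands in its fixed letters, occurred once each before Fga (from base -234) and Fgb (from base -162), and not in this window of Fgg. Of the 14452 measured genes with a promoter in the table, 1073 (7.42%) held it. Fgb, with a difference of 0.02 at a level where it may not be detected, held these letters, and Fgg, which rose by 2.73, did not.

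Of the 12 widest falls Pon1 had the widest gap and Fabp1 the largest difference. Pon1, a paraoxonase that hydrolyses lactones and organophosphates, read 9.03, 9.24 and 8.86 in the double knockout and 10.65 to 11.55 elsewhere with a median of 11.18. It was 4.23-fold lower (difference -2.08 ± 0.159 SE, limma adjusted p = 0.000157), by -2.11, -1.87 and -2.27 against the Gna11, Gna12 and Gna12/Gna13 groups. Ces1g, a carboxylesterase, read 5.48, 5.92 and 5.03 against 7.07 to 10.62 with a median of 8.36 and was 10.1-fold lower (difference -3.34 ± 0.483 SE, limma adjusted p = 0.00392). Both genes were chosen, like the other widest falls, because no array of another group reached into the range of the double knockout. Gsta2 and Gstm2, glutathione transferases, read 6.64 to 6.78 against 7.85 to 9.52 and 9.90 to 10.18 against 11.07 to 11.54 (differences -1.73 and -1.24). Fmo2, the flavin monooxygenase of lung, read 7.12, 6.44 and 6.93 against 8.13 to 9.0, and Aox3, an aldehyde oxidase, read 6.17, 6.36 and 6.41 against 7.47 to 8.22 (differences -1.80 and -1.54).

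The other wide falls came from genes outside these enzyme families. Fabp1, a fatty acid binding protein, read 5.0, 6.06 and 6.62 against 7.64 to 10.58 with a median of 9.42, a 10.2-fold lower level (difference -3.35 ± 0.396 SE, limma adjusted p = 0.00135). Its 2 probe sets both lay below all other arrays. Azgp1, the secreted zinc-alpha-2-glycoprotein, read 8.47, 7.34 and 7.49 against 9.42 to 11.06 (difference -2.68). Col23a1, a transmembrane collagen, read 6.02, 6.70 and 6.79 against 7.88 to 9.45 (difference -2.33), and all 3 of its probe sets lay below the other arrays. Ccl3, a chemokine that attracts monocytes and other leukocytes, read 6.76, 6.80 and 6.73 against 7.98 to 9.44 (difference -1.88). The 3 Ccl3 values lay close together, while the other 9 spread more widely. Nfe2l3, a transcription factor related to NRF2, read 5.81, 5.70 and 5.87 against 6.76 to 8.57 (difference -1.83), and Kcnk2, a potassium channel, read 4.45, 4.03 and 4.59 against 5.47 to 6.12 (difference -1.39). Leaving out number 2 of the Gnaq/Gna11 arrays ended the call of Nfe2l3 (limma adjusted p = 0.0563).

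The gene lists and their members, here and below, were chosen with earlier results of these data known. A list's share set beside that of all genes thus describes the list and does not test for an excess. For every list the shares over all genes are 3.02% for rises and 2.57% for falls. Among the lists, xenobiotic and aldehyde metabolism had the largest share of falls. Of 30 measured members 19 fell and 0 rose, against 2.57% of all genes that fell. Below all other arrays lay 17 of the 19, beside 281 of the 467 falls over all genes. The median difference was -0.72, beside 0.01 over all genes, and it was -0.65, -0.48 and -0.80 against the Gna11, Gna12 and Gna12/Gna13 groups, which share the Gnaq/Gna11 arrays. The mean of the 30 genes in an array was 7.95 to 7.99 in the double knockout, whereas Gna11 arrays had 8.72 to 8.84, Gna12 arrays 8.79 to 8.85 and Gna12/Gna13 arrays 9.04 to 9.20. The double knockout thus had the lowest level of the list in all 3 arrays.

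The falls ran through several enzyme families. Among carboxylesterases, Ces1f read 5.56, 4.61 and 4.39 against 6.34 to 9.10 (difference -2.75 ± 0.272 SE, limma adjusted p = 0.000553), Ces1d fell by 1.62, and Ces2e had a difference of -0.12. Among flavin monooxygenases, Fmo1 read 6.21, 5.61 and 6.43 against 7.04 to 9.11 (difference -2.29 ± 0.376 SE, 4.89-fold lower, limma adjusted p = 0.00678), and Fmo5 fell by 1.37. Of the aldehyde-oxidising enzymes, Aldh3a1 fell by 1.99, Aox1 by 1.26 and Aldh1a1 by 0.54, while Aldh1a3 and Aldh1a7 had differences of 0.07 and -0.11 and did not pass. Cytochrome P450 genes fell by 1.51 (Cyp1b1), 0.97 (Cyp4b1), 0.45 (Cyp2s1) and 0.30 (Cyp2b10), and Cyp1a1 had a difference of 0.00. Adh7, an alcohol dehydrogenase, fell by 2.07, with differences of -0.84, -2.53 and -2.83 from Gna11, Gna12 and Gna12/Gna13, and Ephx1, the microsomal epoxide hydrolase, fell by 0.90. Of the 4 members with a positive difference the sulfotransferase gene Sult1a1 had the largest (0.88, limma adjusted p = 0.0716), and none of the 4 passed. Without 1 array at a time 15 to 20 members fell, without the Gna12/Gna13 group 13, and against only the number 2 arrays 4, with a median difference of -0.71 there.

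**Figure D3:**
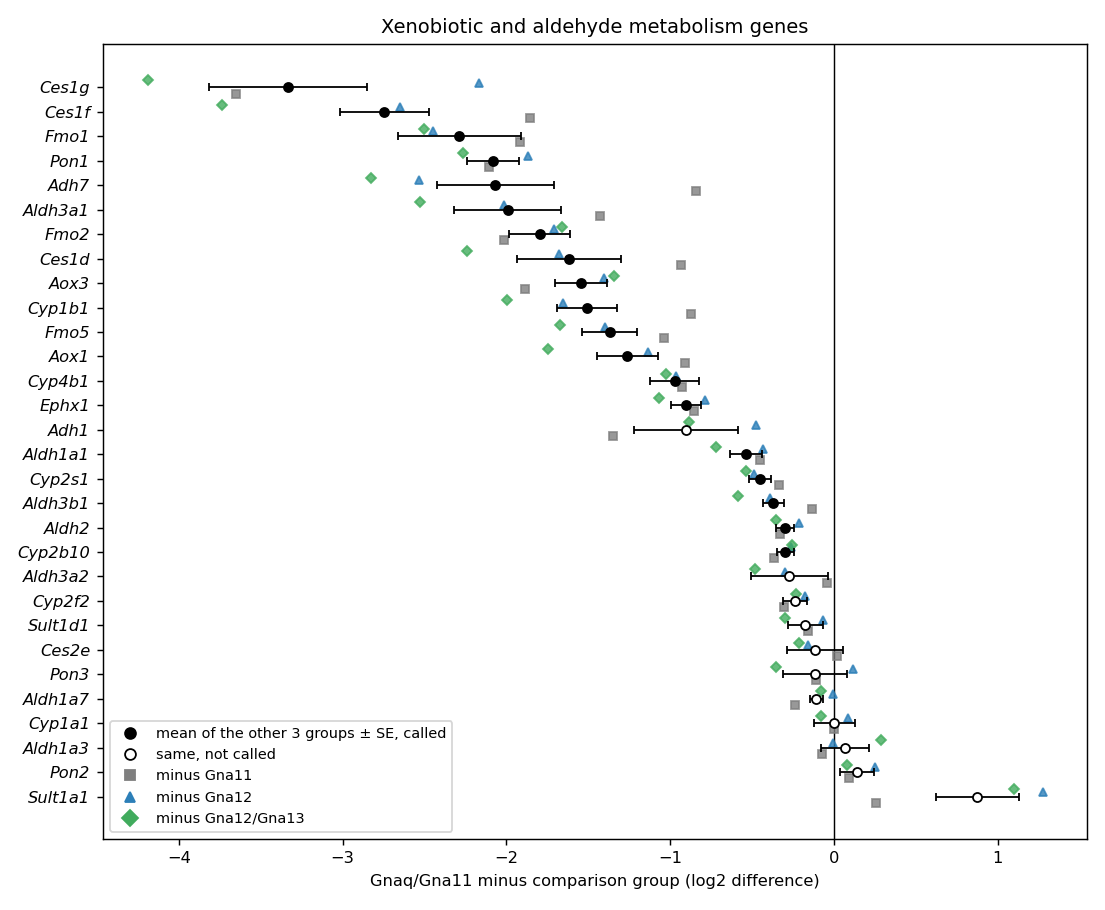
Log2 difference of the 30 measured xenobiotic and aldehyde metabolism genes between the double knockout and the mean of the other 3 groups (circles, bars ± SE of the limma fit, filled where the adjusted p was under 0.05) and from each other group alone. The 19 filled circles all lie left of 0, from Ces1g at -3.34 to the smaller falls of Aldh2 and Cyp2b10 at -0.30.

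Glutathione transferases and targets of NRF2, the transcription factor of the oxidant response, also held falls. Of 27 measured members 12 fell (2.57% of all genes) and 1 rose, with a median difference of -0.61. Below all other arrays lay 9 of the 12, beside 281 of the 467 falls over all genes. Gpx2, an epithelial glutathione peroxidase, read 11.36, 10.44 and 10.93 against 11.64 to 12.26 (difference -1.0 ± 0.156 SE, limma adjusted p = 0.00553). Gstm1 fell by 0.77, Gsta4 by 0.79, Cbr3 by 1.15, Srxn1 by 0.91 and Gclm by 0.86. Gstt1 was the member that rose, by 0.41. The classical NRF2 targets Nqo1 and Hmox1 had differences of -0.41 and -0.61 and did not pass, and Nfe2l2, which encodes NRF2, had -0.40. The list's median difference was -0.13 from the Gna11 group, -0.67 from Gna12 and -1.04 from Gna12/Gna13, so the Gna11 cells lay nearest to the double knockout. Number 2 of the Gnaq/Gna11 arrays weighed most, with 7 falls without it, and against only the number 2 arrays 3 fell. The antioxidant response element core TGACNNNGC occurred, on either strand, in the 250 upstream bases of 6 of 23 of these genes with a promoter in the table (26.1%), in 2 of the 12 with a promoter that passed the test (16.7%), in 0 of 24 of the xenobiotic genes and in 13.5% of all genes.

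No effector or regulator of the Gq/11 pathway passed the test. Of 30 measured members 0 passed limma's threshold, and 4 were lower and 0 higher at an unadjusted p under 0.05, which 19% of all genes reached, with a median difference of -0.06. Phospholipase C beta genes had differences of -0.31 (Plcb1), -0.05 (Plcb2), -0.31 (Plcb3) and -0.33 (Plcb4). Rgs2, a GTPase activator that acts on Gq, had 0.15, and the other Gq-family subunits Gna14 and Gna15 had -0.46 and 0.25. Of 28 receptors that couple to Gq/11, 1 fell and 0 rose. That receptor was Lpar3, which binds lysophosphatidic acid, with 6.58, 5.87 and 6.22 against 7.27 to 8.43 (median 7.73). Its groups did not overlap, and it was 2.99-fold lower (difference -1.58 ± 0.205 SE, limma adjusted p = 0.00215), by -1.62, -1.33 and -1.80 against the Gna11, Gna12 and Gna12/Gna13 groups. Lpar1 and Lpar2 had differences of -0.08 and -0.26, the thrombin receptor F2r 0.57, the nucleotide receptor P2ry6 1.29 (limma adjusted p = 0.213) and the bradykinin receptor Bdkrb2 -0.74.

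Of 25 calcium, NFAT and immediate early genes 3 fell and 0 rose, beside 2.57% and 3.02% of all genes. Nr4a1, an orphan nuclear receptor that stimuli induce quickly, read 6.70, 6.79 and 7.04 against 7.36 to 8.75 (difference -1.05 ± 0.203 SE, limma adjusted p = 0.0143). Fosl1, a subunit of AP-1, read 10.57, 10.10 and 10.62 against 10.79 to 11.57 (difference -0.71 ± 0.129 SE, limma adjusted p = 0.0106). The second Fosl1 probe set differed by 0.09, and the mean of both, with -0.31, did not pass (limma adjusted p = 0.176). Egr2 fell by 1.35, but its array number 2, at 6.90, overlapped with a Gna11 array at 6.67. Fos, Egr1 and Atf3 had differences of 0.09, 0.03 and -0.10 and did not pass. The call of all 3 falls was lost without number 2 of the Gnaq/Gna11 arrays, where 0 members fell, and without the Gna12 group, where again 0 did, and 1 was left without number 1 of the Gnaq/Gna11 arrays.

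Targets of SRF, YAP and TAZ, transcriptional regulators that respond to the state of the actin cytoskeleton, moved both ways. Of 18 members 2 rose and 1 fell, beside 3.02% and 2.57% of all genes. Tpm2, a tropomyosin of actin filaments, read 11.87, 12.30 and 12.02 against 9.87 to 11.11 (difference 1.39 ± 0.187 SE, limma adjusted p = 0.00275), and 3 of its 4 probe sets lay above all other arrays. Actg2, a smooth muscle actin, rose by 0.63, but its means of 4.68 against 4.05 both lay under the median level of 5.08. Srf itself fell by 0.59, though only 1 of its 2 probe sets was lower. Srf was not called without number 3 of Gna11, any 1 of the Gnaq/Gna11 arrays, number 1 or 2 of Gna12 or number 2 of Gna12/Gna13, and 1 of the rises was lost without number 2 of the Gnaq/Gna11 arrays. The YAP targets Ccn1, Ccn2 and Ankrd1 had differences of 0.24, 0.30 and -0.06 and did not pass. Of 25 genes of TGF-beta activation and response 2 fell and 0 rose, beside 2.57% and 3.02% of all genes. Both falls had all 3 arrays below the other 9, beside 281 of the 467 falls over all genes. Without number 1 of the Gnaq/Gna11 arrays 0 members fell. Smad3, which carries the TGF-beta signal to the nucleus, read 10.90, 11.26 and 11.31 against 11.47 to 11.96 (difference -0.57 ± 0.109 SE, limma adjusted p = 0.0141). A second Smad3 probe set above the median level differed by 0.25 in the other direction, and with the mean of the Smad3 probe sets the difference was -0.17 and did not pass (limma adjusted p = 0.601). Thbs1, a matrix protein able to activate latent TGF-beta, read 9.34, 9.02 and 9.22 against 9.54 to 10.40 (difference -0.60 ± 0.154 SE, limma adjusted p = 0.0452), and it passed in 9 of 27 alternatives, among the fits without 1 array only in that without number 3 of Gna12. The ligands Tgfb1, Tgfb2 and Tgfb3 had differences of 0.53, -0.87 and 0.28, and the integrin genes Itgav and Itgb6 had -0.02 and 0.05.

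Markers of the labelled cell type were high in all 12 arrays, with Sftpc at 12.78 to 13.38 and Sftpd at 13.28 to 13.46. Type I cell markers such as Ager, at 13.18 to 13.51, and airway markers such as Scgb1a1, at 13.12 to 13.28, were also bright in every array. Of 17 type II markers 7 rose and 0 fell, against 3.02% of all genes that rose, and the median difference was 0.38. Above all other arrays lay 5 of the 7, beside 378 of the 550 rises over all genes. In these bulk samples a change in the share of a cell type and a change in RNA per cell cannot be told apart. Slc34a2, the phosphate transporter of type II cells, read 9.71, 10.14 and 9.81 against 8.02 to 9.63 (difference 1.16 ± 0.163 SE, limma adjusted p = 0.00325). Egfl6, a secreted epidermal growth factor repeat protein, read 8.35, 7.90 and 7.91 against 5.23 to 7.30 (difference 1.49 ± 0.337 SE, limma adjusted p = 0.0286). Sftpb, a surfactant protein, rose by 0.38, Napsa, the protease that processes it, by 0.53, and Abca3, the lipid transporter of lamellar bodies, by 0.58. Sftpc, Sftpa1 and Sftpd had differences of 0.08, 0.02 and 0.10 and did not pass. The median of the list was 0.11 from the Gna11 group and 0.53 and 0.57 from Gna12 and Gna12/Gna13, so the larger differences were those from the groups that keep Gnaq and Gna11. The number of rises was 1 without number 3, 2 without number 2 and 3 without number 1 of the Gnaq/Gna11 arrays, 4 without number 1 of Gna12 or number 2 of Gna12/Gna13, and 0 against only the number 2 arrays.

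Of 16 type I markers 0 passed with limma (1 lower and 0 higher at an unadjusted p under 0.05). Aqp5, Pdpn and Ager had differences of 0.13, -0.01 and 0.02, and Igfbp2 had -2.20 (limma adjusted p = 0.0768). The median of the list was -0.12, and with Eif2s3y as a covariate it was 0.54 and 4 members rose. Of 14 genes of the transitional state between type II and type I cells 2 fell by small amounts (2.57% of all genes fell). They were Sfn, by 0.35, and the keratin gene Krt19, by 0.24, and 0 members fell without number 2 of the Gnaq/Gna11 arrays. Of 18 airway markers Clca1 rose, while Tppp3, a marker of ciliated cells, fell by 0.57 and the club cell secretoglobin Scgb3a2 by 0.18. Over all genes 3.02% rose and 2.57% fell.

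**Figure D4:**
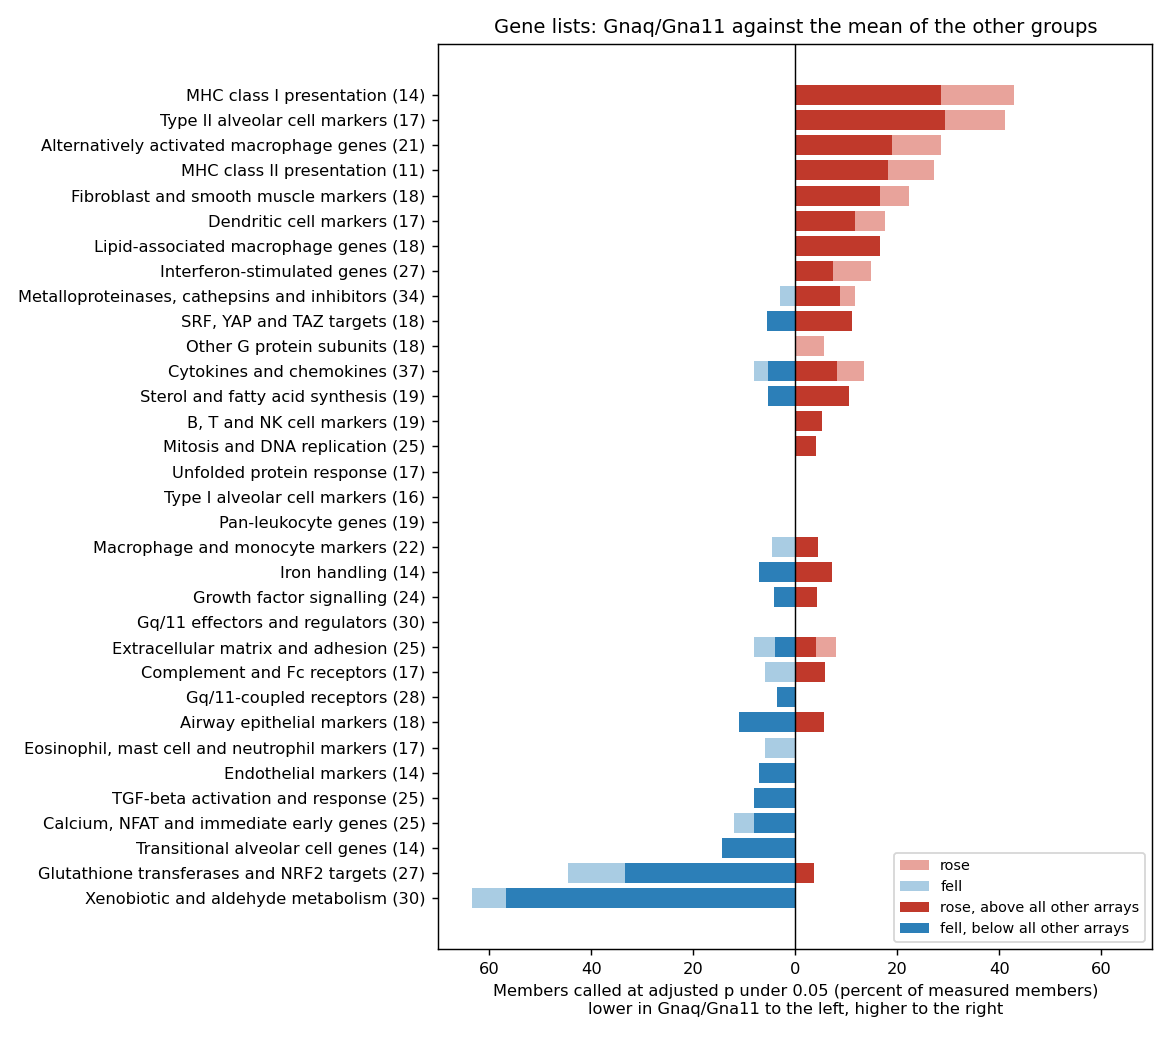
Share of the measured members of each gene list (their number in brackets) that fell (left) or rose (right) in the double knockout against the mean of the other groups, in percent, with the darker part for members outside the range of the other 9 arrays. Falls reach their largest share in xenobiotic metabolism (19 of 30), and rises in MHC class I presentation (6 of 14) and type II markers (7 of 17). The lists were chosen with earlier results of these data known, so the shares are descriptive.

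Immune genes were measured beside a leukocyte level that lay between those of the other groups. Of the 19 pan-leukocyte genes 0 passed with limma, 0 also at an unadjusted p under 0.05 in either direction, with a median difference of 0.11, and of 0.71 from Gna11, -0.37 from Gna12 and -0.09 from Gna12/Gna13. The leukocyte marker Ptprc read 9.18, 9.08 and 8.58 against 8.54 to 10.42. Its level lay well above the array medians, so the cultures of all 4 genotypes held leukocyte RNA. Of 22 macrophage and monocyte markers the scavenger receptor gene Msr1 rose by 1.35 and Siglecf, a marker of alveolar macrophages and eosinophils, fell by 1.32, and the list's mean was 8.59 to 8.62 in the double knockout and 7.08 to 7.71 in Gna11, while the Gna12 arrays had 8.31 to 8.93 and the Gna12/Gna13 arrays 7.89 to 9.01. Msr1 was not called without number 1 or 2 of the Gnaq/Gna11 arrays, and Siglecf kept its call only when number 2 of Gna11, number 1 of Gna12 or number 1 of Gna12/Gna13 was the array left out.

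Genes of alternative macrophage activation stood higher. Of 21 members 6 rose and 0 fell (3.02% of all genes rose), with a median difference of 0.42. That median was 0.99 from Gna11 but 0.31 from Gna12 and 0.33 from Gna12/Gna13. Above all other arrays lay 4 of the 6, beside 378 of the 550 rises over all genes. The rises were Rnase2a, Retnla, Chil4, Ccl17, Ccl22 and Il33, of which Ccl17 and Ccl22 are also products of dendritic cells. Il33, a cytokine that epithelial cells release and that drives type 2 responses, stood at 11.43, 11.17 and 11.52 against 7.02 to 10.35 (median 9.04). The Il33 difference was 2.58 ± 0.374 SE or 5.99-fold (limma adjusted p = 0.00392), and it was 1.48 from Gna11, 3.43 from Gna12 and 2.84 from Gna12/Gna13. Retnla, a secreted marker of alternative activation, read 12.96, 13.02 and 13.07 against 12.44 to 12.87 (difference 0.42 ± 0.0686 SE, limma adjusted p = 0.0065). Chil4, a chitinase-like protein, rose by 2.66, but array number 2, at 4.08, lay within the other 9, at 3.25 to 4.40. Chil3 and Arg1, also in the list, had differences of -0.03 and 0.26 and did not pass. Against only the number 2 arrays 1 member was called, and without any single array 4 to 7 were.

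Of the 37 cytokines and chemokines 5 rose and 3 fell, beside 3.02% and 2.57% of all genes. Ccl17, which attracts T cells through CCR4, read 13.19, 13.11 and 13.18 against 10.64 to 13.00 (difference 1.07 ± 0.129 SE, limma adjusted p = 0.00145). Most of that difference lay against Gna11 (2.23), with 0.45 and 0.52 from Gna12 and Gna12/Gna13. Ccl22, the other CCR4 ligand, rose by 1.20 with overlapping arrays, and its difference was 3.01 from Gna11 and 0.26 and 0.33 from the others. Ccr7, the receptor of migrating dendritic cells, read 9.21, 9.65 and 9.82 against 5.79 to 9.20, so its arrays just cleared the range (difference 1.68 ± 0.262 SE, limma adjusted p = 0.00553). Ccl3, Ccl4 and Cxcl2, which activated macrophages make, fell by 1.88, 1.67 and 0.89. In this list 1 gene fell without number 2 or 3 of the Gnaq/Gna11 arrays or number 2 of the Gna12/Gna13 arrays. Without number 2 or 3 of the Gnaq/Gna11 arrays 3 rose. Of 17 dendritic cell markers 3 rose, namely Ccr7, Ccl17 and Ccl22, and 0 fell (3.02% of all genes rose). Against only the number 2 arrays 0 members of either list passed.

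**Figure D5:**
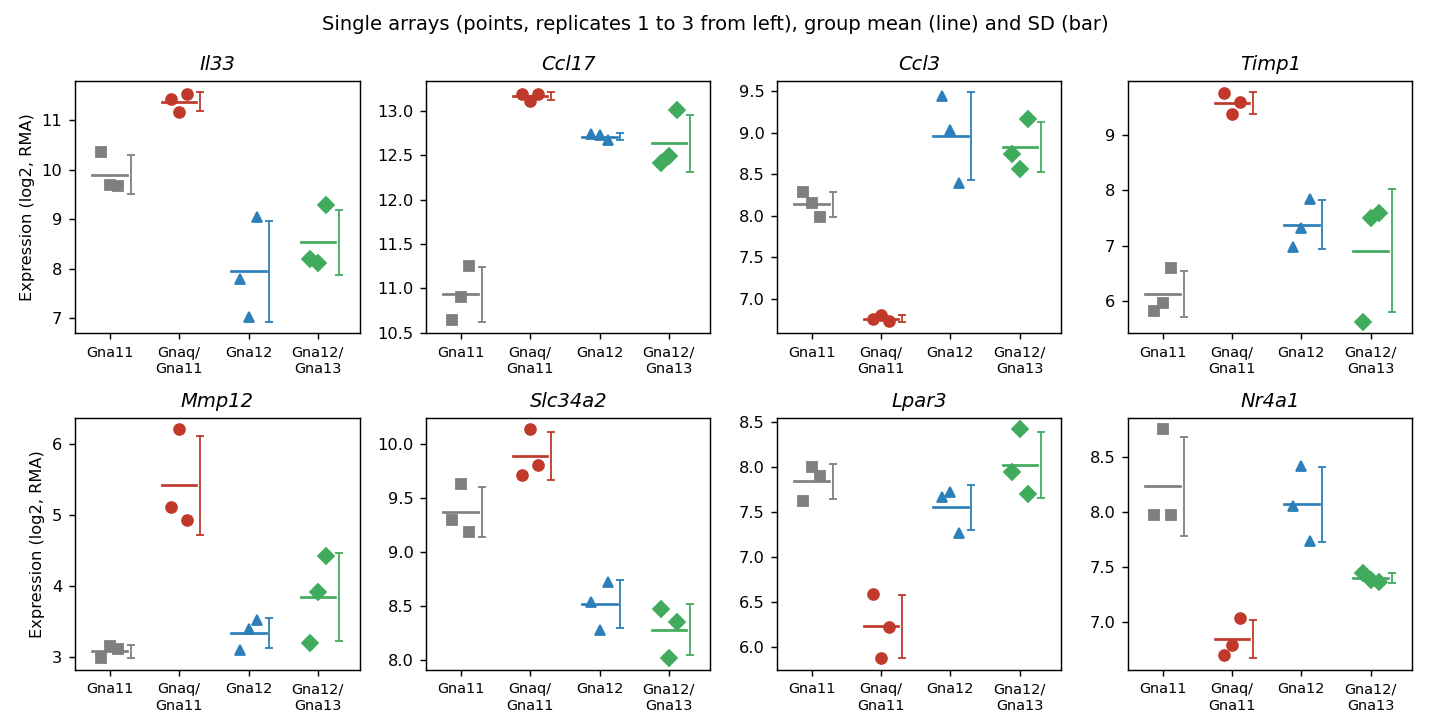
Expression (log2) of 8 genes in each array (points), with the group mean (line) and SD (bar, n = 3), by knockout group. Il33, Ccl17, Timp1, Mmp12 and Slc34a2 lie above all other arrays in the double knockout, and Ccl3, Lpar3 and Nr4a1 below, while the Gna11 group lies closest for Il33 and Slc34a2 and farthest for Ccl17.

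Genes of lipid-laden macrophages and of matrix-degrading enzymes also held rises. Npy, a peptide that some macrophages express, read 11.98, 11.88 and 11.84 in the double knockout. The other arrays ran from 5.18 to 11.27 with a median of 6.67, and number 2 of the Gna12/Gna13 arrays was the one at 11.27. The difference was 4.86 ± 0.832 SE (limma adjusted p = 0.00846). Gpnmb and Trem2, which mark macrophages that take up lipid, rose by 2.31 and 1.35, both with all 3 arrays above the other 9. With Eif2s3y as a covariate neither passed, with differences of 1.82 for Gpnmb and 1.29 for Trem2 (limma adjusted p = 0.0799 and 0.0567), and a second Trem2 probe set differed by -0.05. With Npy they were the 3 rises among 18 members, of which 1 was left without number 2 or 3 of the Gnaq/Gna11 arrays. The median difference of the 18 was 1.09 from Gna11 but 0.09 from Gna12 and 0.07 from Gna12/Gna13. Mmp12, the elastase of macrophages, read 5.11, 6.20 and 4.92 against 2.98 to 4.42 (difference 1.99 ± 0.274 SE, limma adjusted p = 0.00292). Its level in the double knockout lay near the array medians. Of 34 metalloproteinases, cathepsins and inhibitors 4 rose, namely Timp1, Mmp12, Cst3 and Ctsh, and 1 fell, beside 3.02% and 2.57% of all genes. Only 2 rises were left without any 1 of the Gnaq/Gna11 arrays, number 2 of Gna12 or number 2 of Gna12/Gna13. Timp3 fell by 0.76 with overlapping arrays, and it passed in 11 of 27 alternatives. Its call was lost without any 1 of the Gnaq/Gna11 or Gna12 arrays or number 1 or 3 of Gna11. Among other immune lists, Il7r, the interleukin 7 receptor chain, rose by 1.63 (10.33, 10.48 and 10.06 against 8.16 to 9.29) as 1 of 19 B, T and NK cell markers. S100a9, a neutrophil protein, fell by 2.91 as 1 of 17 granulocyte and mast cell markers, and was not called without number 2 or 3 of the Gnaq/Gna11 arrays. Of 17 complement and Fc receptor genes C1ra rose by 1.68 and Cd55 fell by 0.62, and the call of Cd55 was lost without number 3 of Gna11, number 2 or 3 of Gnaq/Gna11, number 1 or 3 of Gna12 or any 1 of the Gna12/Gna13 arrays. At an unadjusted limma p under 0.05, 9 of these 17 were higher and 2 lower. Their median difference was 0.75, and it was 1.59 from Gna11, 0.36 from Gna12 and 0.46 from Gna12/Gna13.

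Genes of antigen presentation were among the rises. Of 14 MHC class I genes 6 rose and 0 fell (3.02% of all genes rose). Above all other arrays lay 4 of the 6, beside 378 of the 550 rises over all genes. The median difference was 0.47 (0.82 from Gna11, 0.31 from Gna12 and 0.44 from Gna12/Gna13). Psmb9, a subunit of the immunoproteasome, read 9.14, 10.23 and 10.13 against 7.28 to 8.64 (difference 1.74 ± 0.267 SE, limma adjusted p = 0.00534). Tap1, the transporter that loads peptides, read 10.38, 11.05 and 10.81 against 9.16 to 10.29 (difference 1.01 ± 0.212 SE, limma adjusted p = 0.0217), and B2m, the light chain of MHC class I, read 10.31, 10.54 and 10.51 against 8.41 to 10.04 (difference 1.12 ± 0.234 SE, limma adjusted p = 0.0205). Psmb8, H2-K1 and Psme1 rose by 0.90, 0.62 and 0.29. Without number 2 or number 3 of the Gnaq/Gna11 arrays 2 members rose, with Eif2s3y as a covariate 3, and against only the number 2 arrays 0. Of 11 MHC class II genes 3 rose, H2-DMb2 by 1.06, H2-Eb1 by 0.80 and Cd74 by 0.27. None did without number 2 or number 3 of the Gnaq/Gna11 arrays. The class II median difference was 0.95 from Gna11 but 0.10 from Gna12 and 0.18 from Gna12/Gna13. Of 27 interferon-stimulated genes 4 rose, among them Zbp1, a sensor of nucleic acids, by 1.57 and Oas1a, an antiviral enzyme, by 1.11, and number 1 of the Gnaq/Gna11 arrays was the lowest of the 3 for both. The count was 1 without number 2 of the Gnaq/Gna11 arrays, 2 without number 3 of them, number 1 or 2 of Gna12 or number 1 of Gna12/Gna13, and 0 against only the number 2 arrays.

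Psmb9 and Tap1 are transcribed away from each other from a shared stretch, which is shown because both genes rose. Its 225 bases lie at chr17:34187331-34187555 of GRCm38.p6 (RefSeq), are written on the plus strand, and hold 1 GC box (GGGCGG, here on the minus strand) in capitals.
Psmb9 and Tap1: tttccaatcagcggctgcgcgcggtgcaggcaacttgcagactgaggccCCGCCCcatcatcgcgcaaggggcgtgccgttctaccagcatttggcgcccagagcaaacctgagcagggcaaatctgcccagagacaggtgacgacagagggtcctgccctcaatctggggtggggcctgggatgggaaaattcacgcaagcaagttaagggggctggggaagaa
A GC box on either strand occurred in the 250 upstream bases of 7719 of 14452 genes (53.4%). Neither the interferon-stimulated response element nor the STAT motif was found in this stretch.

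Of 18 fibroblast and smooth muscle markers 4 rose and 0 fell (3.02% of all genes rose), with a median difference of 0.20. Col3a1 read 7.69, 6.52 and 7.10 against 4.30 to 5.48 (difference 2.16 ± 0.274 SE, limma adjusted p = 0.00179), and Col1a1 read 8.39, 8.22 and 7.81 against 5.58 to 6.76 (difference 1.86 ± 0.214 SE, 3.63-fold, limma adjusted p = 0.00116). Both chains of type I collagen rose, Col1a2 by 2.32, with 1 of the 3 Col1a2 probe sets in the other direction. Col6a1 rose by 0.92 with overlapping arrays. The smooth muscle gene Acta2 had a difference of 0.40 and did not pass. Leaving out any 1 of 6 arrays (number 3 of Gna11, number 2 or 3 of Gnaq/Gna11, number 1 or 2 of Gna12, number 2 of Gna12/Gna13) left 2 rises, and against only the number 2 arrays there were 3. Of 14 endothelial markers 1 fell, the VEGF receptor gene Kdr by 1.22, and the median difference of -0.51 became 0.01 against only the number 2 arrays. Of 25 matrix and adhesion genes Itga9 and Col7a1 rose and Col23a1 and Cdh1 fell. Col7a1 and Cdh1 each passed in 12 of 27 alternatives, and both calls were lost without any 1 of the Gnaq/Gna11 arrays. That of Col7a1 was also lost without number 1 or 3 of Gna11, any 1 of the Gna12 arrays or number 1 of Gna12/Gna13, and that of Cdh1 without number 3 of Gna11, number 2 or 3 of Gna12 or number 1 or 2 of Gna12/Gna13. The call of Kdr was lost without any 1 of the Gna11 or Gnaq/Gna11 arrays or number 1 of Gna12.

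The remaining lists held few calls. Of 19 sterol and fatty acid genes Fasn, the fatty acid synthase, rose by 0.65 and Fdps, an enzyme of isoprenoid synthesis, by 1.13, while Fabp1 fell. Without number 1 or number 3 of the Gnaq/Gna11 arrays 0 of these rises were called. Of 14 iron genes Lcn2, a siderophore-binding protein, rose by 0.33 and Cp, ceruloplasmin, fell by 0.91. Lcn2 was not called without number 1 or 3 of the Gnaq/Gna11 arrays, and Cp without number 2 or 3. Birc5, a regulator of cell division, was the 1 of 25 mitosis genes that passed (1.31). The calls of Birc5, and of Met below, were lost without any 1 of the Gnaq/Gna11 arrays, and that of Birc5 also without number 1 or 3 of Gna11 or number 1 or 2 of Gna12. Of 17 genes of the unfolded protein response 0 passed with limma (2 higher and 1 lower at an unadjusted p under 0.05). Of 24 growth factor genes Met, the receptor of hepatocyte growth factor, rose by 0.55 and Igf1r fell by 1.17. Of 18 other G protein subunits Gnb4, a beta subunit, rose by 3.22, but number 1 of the Gna11 arrays, at 9.59, lay within the double knockout's 9.29 to 9.86, and the call was lost without number 3 of the Gnaq/Gna11 arrays. The Gna12 and Gna13 probe sets that represent these genes had differences of -0.26 and 0.18 and did not pass.

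Some calls came with levels that the double knockout shared with Gna11 cells, as with Gnb4. The 3 comparisons with single groups share the Gnaq/Gna11 arrays, and they called 335 genes against Gna11 (1.84%; 212 higher, 1.17%, and 123 lower, 0.676%). Against Gna12 they called 740 (4.07%), 429 higher (2.36%) and 311 lower (1.71%), and against Gna12/Gna13 1109 (6.1%), 492 higher (2.7%) and 617 lower (3.39%). Itga9, an integrin subunit, read 11.08, 10.85 and 10.93 in the double knockout, 10.96, 10.80 and 10.45 in Gna11 and 4.92 to 6.70 in the other 6 arrays. Its difference was 3.21 from the mean of the other groups and 0.22 from Gna11, so it passed the first comparison with overlapping arrays. Its other probe sets, also above the median level, differed from the mean of the other groups by only -0.11 and 0.31. In all 358 genes were called without lying outside the range, and 336 lay outside without being called. Among the 659 genes that met both conditions, the nearest other array was a Gna11 array in 388 (58.9%), a Gna12 array in 126 (19.1%) and a Gna12/Gna13 array in 145 (22%). The median gap was 0.20, and 21 genes above and 8 below had a gap of more than 1 log2 unit. At the edge of the range, Ccr7 cleared the nearest other array by 0.01 and Ccl17 by 0.11, while Ccl22 and H2-K1 overlapped.

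Around Gnaq on its chromosome, 4 of the 50 nearest measured genes were called (8%), as were 50 of 610 on the chromosome (8.2%) and 5.59% of all genes. The mechanosensory channel gene Tmc1 rose by 0.70 and Cblif by 0.83, and the proprotein convertase gene Pcsk5 fell by 1.28 and Aldh1a1 by 0.54. Pcsk5 passed in 13 of 27 alternatives, and its call was lost without number 1 or 3 of Gna11, number 2 or 3 of Gnaq/Gna11, number 1 or 3 of Gna12 or any 1 of the Gna12/Gna13 arrays. Tmc1 was not called without number 1 or 3 of the Gnaq/Gna11 arrays, and Cblif without number 2 or 3. The 4 called genes of this stretch thus did not move in 1 direction, though both rises lay at levels where background was not measured.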

How the data were processed

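Expression was measured on 12 arrays, 3 for each of 4 genotypes. The deposited values are RMA-normalised log levels per probe set, per the submitters' processing notes. Their base is not stated by the authors, and they were read as log2 since they run from 2.13 to 14.1. The genome build and any further steps were not given in the sources used here. Of 45101 probe sets 34945 had 1 gene, and 34741 of these symbols were updated through the RefSeq table of GRCm38.p6. For each of 18193 genes the probe set of highest mean was kept. Limma 3.58.1 in R 4.3.3 fitted 1 mean per genotype with eBayes and a mean-variance trend (8 residual degrees of freedom, 3.19 prior), and p-values were adjusted by Benjamini-Hochberg. It was tested on simulated data. The number of arrays limits the precision. Gnaq probe sets had exact permutation tests.

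The members and the 34 gene lists (701 of 758 entries measured) were chosen with earlier results of these data known. The named genes were the targeted genes, up to 12 rises and 12 falls with the widest gap among called genes whose higher mean, of the double knockout or of the others, was no lower than the median probe set (5.08) whose probe set has 1 gene and whose symbol is no clone, predicted or RIKEN name, up to 4 called members of each list with the largest difference, those outside the range first, and up to 8 called genes among 25 on each side of Gnaq. Other genes were named after their values were seen, as further members of a list or as said in the text. The replicate numbers were not taken to pair the samples. Alternatives changed the probe set, the filter, the scaling, the variance model, covariates, the block and the arrays included. List counts under them were added after seeing the data.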

Additional observations from a re-analysis of the deposited data

How the results depend on the processing

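Leaving out 1 array at a time gave 345 to 1036 calls for the main comparison, 310 to 786 of them outside the range, 102 to 381 against Gna11, 209 to 940 against Gna12 and 369 to 1259 against Gna12/Gna13. The Gnaq probe set 1429559_at then differed by -1.39 to -0.956, and without a Gnaq/Gna11 array its exact permutation test could not go below an adjusted p of 0.127. Fits with fewer arrays called 1773 genes (1642 outside) without the Gna11 group, 388 (344) without the Gna12 group and 438 (399) without the Gna12/Gna13 group. Against only the number 2 arrays, pooled as 1 group, 94 (94) were called, and the other 9 arrays as 1 group gave 514. Against Gna11 the count was 174 with array weights, 26 after fitting the pan-leukocyte mean and 3 after fitting the Gapdh difference. Against Gna12 it was 1216 with array weights and 358 with the pan-leukocyte mean. The cause of these shifts was not tested. The Gna12 probe sets averaged 0.0112, against -0.26 for the brightest. Under the other settings the main count lay within 1.5 times of 1017, but a like count need not hold the same genes. With Eif2s3y as a covariate 1059 genes were called, of which 702 were among the 1017. Of 545 genes called outside the range in that fit, 492 were among the 659 of the main fit. With the replicate number as a block the main count was 1010 (621 outside), and 309, 726 and 1090 against the single groups. Deviations of same-numbered arrays correlated by 0.00418 to 0.0597 in the 9 pairs with a Gnaq/Gna11 array and by -0.0375 to 0.271 in all 18, of which 6, among number 2 and number 3 of the other groups, were over 0.1, so the numbers were not taken as pairs. The 24 genes with the widest gap were chosen for not overlapping, so leaving out arrays could not reverse their direction. They kept it in all 27 alternatives, 13 passed in every one, and 10 of the other 11 missed only against the number 2 arrays. The exception, Nfe2l3, missed without number 2 of the Gnaq/Gna11 arrays. Of all 94 named genes that were called, 15 passed in every alternative and 8 in at most 13 of the 27.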
